A study of Homo sapiens with 8 samples.

Results

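The introns described here are the first listed introns of genes with many introns. A gene entered if the deposited tables list at least 4 of its introns. Its intron nearest the 5′ end was taken if it was at least 100 and under 20000 bases long and had a total of at least 20 reads in each of the 8 libraries. Of 11158 genes with at least 4 listed introns, 9067 had a first listed intron in the length range, and 3066 of these met the read minimum. They are 3066 of 142224 listed introns in 15902 genes, and 1 per gene. The intronic share of an intron is the percentage of its total reads that lay inside it, and the remainder was read as reads spliced across it. The cells were SUM159, an established triple-negative breast cancer line with mesenchymal features. They received the SF3b inhibitor H3B-8800, or the solvent DMSO as vehicle, in each case for 12 h. Polyadenylated RNA was sequenced either as extracted (input) or once pulled down by J2, which is an antibody that recognises double-stranded RNA, in all 4 combinations with 2 biological replicates each. No library is an immunoprecipitation with a control antibody. The p-values measure only the spread between replicates, 2 per group, and in the fits all 4 groups share the estimate of this spread.

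In splicing, the U1 particle binds the 5′ splice site, U2AF binds the pyrimidine tract and AG at the 3′ end, and the U2 particle pairs with the branch site between them. SF3b is the part of U2 that holds the branch-site adenosine, and compounds of this class occupy the same pocket. The first intron of a gene is special in several ways: its upstream exon is defined by the 5′ cap rather than by a 3′ splice site, it is often long, and it often holds regulatory elements or alternative starts.

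The 3′ ends of the introns hold the branch site and the pyrimidine tract, so the last 50 intronic bases are shown for 3 sets of first introns. Intron sequence could be read for 209 members, where a GENCODE 29 transcript (GRCh38) has an exon that spans the intron. Of these, 207 began with GT and ended with AG. Capitals mark the AG and every match to CTNAC, a short form of the branch-site letters, searched on the transcribed strand and allowed to overlap. The first 6 introns were among those whose share rose most in the input. They lie at chr17:42659784-42659833 (plus strand, TUBG2), chr19:18193814-18193863 (plus strand, MPV17L2), chr11:47216286-47216335 (plus strand, DDB2), chr19:18008921-18008970 (plus strand, ARRDC2), chr19:19202882-19202931 (minus strand, NR2C2AP) and chr11:46369444-46369493 (plus strand, DGKZ).
TUBG2: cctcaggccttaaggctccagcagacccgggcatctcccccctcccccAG
MPV17L2: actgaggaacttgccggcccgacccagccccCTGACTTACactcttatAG
DDB2: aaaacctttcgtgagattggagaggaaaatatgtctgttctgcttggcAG
ARRDC2: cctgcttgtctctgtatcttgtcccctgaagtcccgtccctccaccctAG
NR2C2AP: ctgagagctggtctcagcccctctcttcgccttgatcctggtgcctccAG
DGKZ: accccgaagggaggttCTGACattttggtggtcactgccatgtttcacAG

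The next 6 had a high read total and an intronic share that was not called with drug in either kind of RNA. They lie at chr17:38853106-38853155 (minus strand, RPL23), chr5:177592525-177592574 (plus strand, TMED9), chr12:57231431-57231480 (plus strand, SHMT2), chr11:10806886-10806935 (minus strand, EIF4G2), chr15:101276676-101276725 (minus strand, VIMP) and chr17:63829444-63829493 (plus strand, PSMC5).
RPL23: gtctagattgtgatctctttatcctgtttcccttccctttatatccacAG
TMED9: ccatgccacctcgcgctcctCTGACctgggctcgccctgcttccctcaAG
SHMT2: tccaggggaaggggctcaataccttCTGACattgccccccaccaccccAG
EIF4G2: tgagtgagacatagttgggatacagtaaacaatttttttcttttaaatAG
VIMP: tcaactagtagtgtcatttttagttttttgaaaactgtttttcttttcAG
PSMC5: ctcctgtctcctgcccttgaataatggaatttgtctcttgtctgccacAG

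The last pair belongs to ribosomal protein genes whose first introns rose more with drug in J2 RNA than in the input. They lie at chr11:17077478-17077527 (minus strand, RPS13) and chr11:119018054-119018103 (minus strand, RPS25).
RPS13: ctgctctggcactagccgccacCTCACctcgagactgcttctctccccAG
RPS25: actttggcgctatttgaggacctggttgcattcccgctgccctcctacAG

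CTNAC stood in the last 50 bases of 26 of 101 introns that rose in the input (25.7%), of 29 of 106 not called (27.4%) and of 56 of all 209 (26.8%). In the first set MPV17L2 had 2 overlapping matches, DGKZ had 1 and the other 4 introns had none in this window, and in the second set TMED9 and SHMT2 had 1 each. The median share of C and T was 62.5% both in the 101 introns that rose and in the 106 not called. The first 10 bases of the same introns, with GT in capitals, were as follows.
TUBG2: GTgagcaagc
MPV17L2: GTgaggacgc
DDB2: GTactgcctg
ARRDC2: GTaagtcctc
NR2C2AP: GTaagagtct
DGKZ: GTgggtgggt
RPL23: GTgaggtttt
TMED9: GTgcgggggc
SHMT2: GTgggacctg
EIF4G2: GTacttgtag
VIMP: GTgagtcgtt
PSMC5: GTgaggacgg
RPS13: GTgagctcgg
RPS25: GTaagcttca

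Sequence was at hand for 209 of 3066 members. These are introns spanned by an annotated exon, searched over any gene and either strand. The comparison of sequence features therefore does not stand for the members as a whole.

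The library depths behind the deposited RPKM ran from 47000000 to 57000000 reads. The members held 1262821 to 1458264 total reads per library, of which 60068 to 68300 were intronic with vehicle and 135219 to 176042 with drug. Over single introns, the mesenchymal genes VIM (6633 to 11920), TGFBI (2881 to 3985), AXL (855 to 1842), CAV1 (462 to 1387), CD44 (361 to 1072) and FN1 (78 to 470) had spliced reads in every library, and ZEB1 had only 2 to 16. Of the epithelial and luminal genes, EPCAM, CDH1, ESR1, PGR and ESRP1 had at most 2 such reads and ERBB3 at most 5, while GATA3 had 40 to 51 and the keratins KRT8 and KRT18 864 to 1872. CD3E and CDH5 had 0. At the edges of the rule, the median share in the input was 1.70% with vehicle and 4.49% with drug at a lowest total of 20 to 24 reads (246 introns), and 1.69% and 5.0% at 15 to 19 reads (287 introns). At lengths of 100 to 119 bases it was 0.0523% and 2.02%, and at 80 to 99 bases 0.224% and 2.80%. From 15000 to under 20000 bases it was 2.52% and 4.58%, and from there to 24999 bases 1.82% in both. With 4 listed introns it was 1.37% and 2.77%, and with 3 it was 1.60% and 3.72%.

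Summed over the 3066 first introns, reads inside the intron made up 5.08% and 5.0% of the total in the input with vehicle and 10.1% and 9.92% with drug. In J2 RNA they made up 4.68% and 4.79% with vehicle and 12.0% and 12.1% with drug. The drug and vehicle libraries did not overlap, with or without J2. The rise was 4.98 percentage points (1.99-fold) in the input and 7.31 points (2.54-fold) in J2 RNA. The median share over the members rose by only 1.83 points in the input and 1.57 in J2 RNA, so the order of the 2 kinds of RNA turns with this measure. With 2 libraries against 2, an exact two-sided permutation test gave p = 0.33, the smallest value this design allows. Introns elsewhere in the same genes started lower. Their internal introns went from 2.08% ± 0.034 (SD, n = 2) to 7.98% ± 0.0492 in the input (3.83-fold) and from 1.99% ± 0.0305 to 10.4% ± 0.143 in J2 RNA (5.20-fold). Their last introns went from 3.64% ± 0.0152 to 11.2% ± 0.0923 in the input (3.07-fold) and from 2.98% ± 0.043 to 14.1% ± 0.00406 in J2 RNA (4.72-fold). No other annotated exon overlaps 1229 first introns. Their share went from 1.84% ± 0.0178 to 6.39% ± 0.0774 in the input (3.48-fold). In J2 RNA it went from 1.5% ± 0.00505 to 6.68% ± 0.101 (4.44-fold). Reads in the other 1837 first introns can come from such exons. Internal and last introns free of other exons, not limited to the genes of members, also started lower and rose by larger folds. In the input internal ones went from 1.2% ± 0.0314 to 8.71% ± 2.89 (7.28-fold). Last ones went from 1.17% ± 0.00773 to 7.29% ± 0.025 (6.24-fold). In J2 RNA internal ones went from 1.1% ± 0.257 to 8.09% ± 0.106 (7.34-fold). Last ones there went from 0.933% ± 0.0349 to 8.64% ± 0.0238 (9.25-fold). All shares count reads anywhere in an intron without correction for its length, and do not measure how many transcripts retain it.

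**Figure D1:**
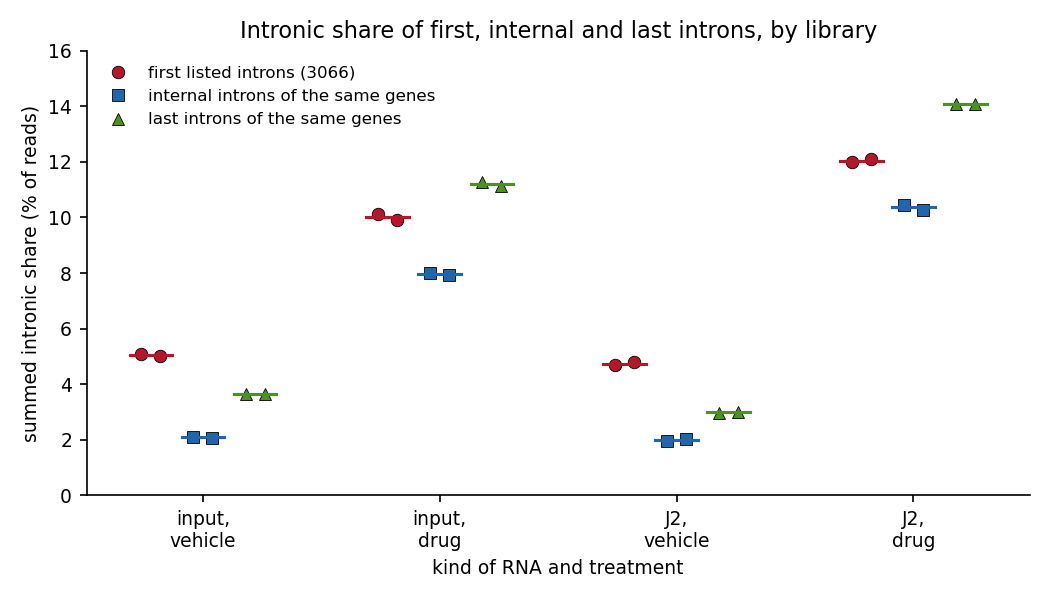
Summed intronic share (percent of intronic and spliced reads, y axis) of first, internal and last listed introns of the same genes in the 4 groups (x axis). Points are the 2 libraries of a group and bars their mean; first introns with drug lay at 10.1% and 9.92% in the input and at 12.0% and 12.1% in J2 RNA, above 5.08% with vehicle at most.

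Before enrichment, the question was how the drug changed the splicing of these introns. The intronic odds (reads inside over reads spliced across) rose in 703 of the 3066 first introns (22.9%) and fell in 43 (1.40%). Over all 30262 introns tested, 29.6% rose and 0.681% fell. limma called 130 falls among the members (4.24%), DESeq2 26 (0.848%) and edgeR 24 (0.783%) with no read minimum for the introns fitted, and of the members free of other exons 0.895% fell. The test was edgeR's quasi-likelihood F test on both read counts of each intron, with Benjamini-Hochberg adjustment over the 30262 introns and a threshold of 0.05. In 701 of the 703 and 42 of the 43 the shares of vehicle and drug libraries did not overlap. This was counted for the members only, so no share over all introns stands beside it. The median change of the share was 0.813 percentage points over the members and 1.37 over all introns tested, and the share was higher with drug in 1945 members, lower in 720 and equal in 401. Among the 703, the rise ran from 0.0718 to 89.0 points with a median of 19.3. It was over 50 points in 94 and under 5 in 124. In 762 members no read lay inside the intron in either vehicle library. These calls refer to the raw odds. With the intronic and the spliced counts each scaled by median-of-ratios size factors, the median log2 odds change of all introns moved by -1.32, and 234 first introns were called higher and 331 lower. Such scaling takes out a shift common to most intronic counts, so higher and lower are then relative to that shift. Over all 30262 introns this scaling gave 3515 higher (11.6%) and 1486 lower (4.91%), the opposite balance. The number of falls was 21, 19 or 23 without input vehicle replicate 1, drug replicate 1 or drug replicate 2.

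**Figure D2:**
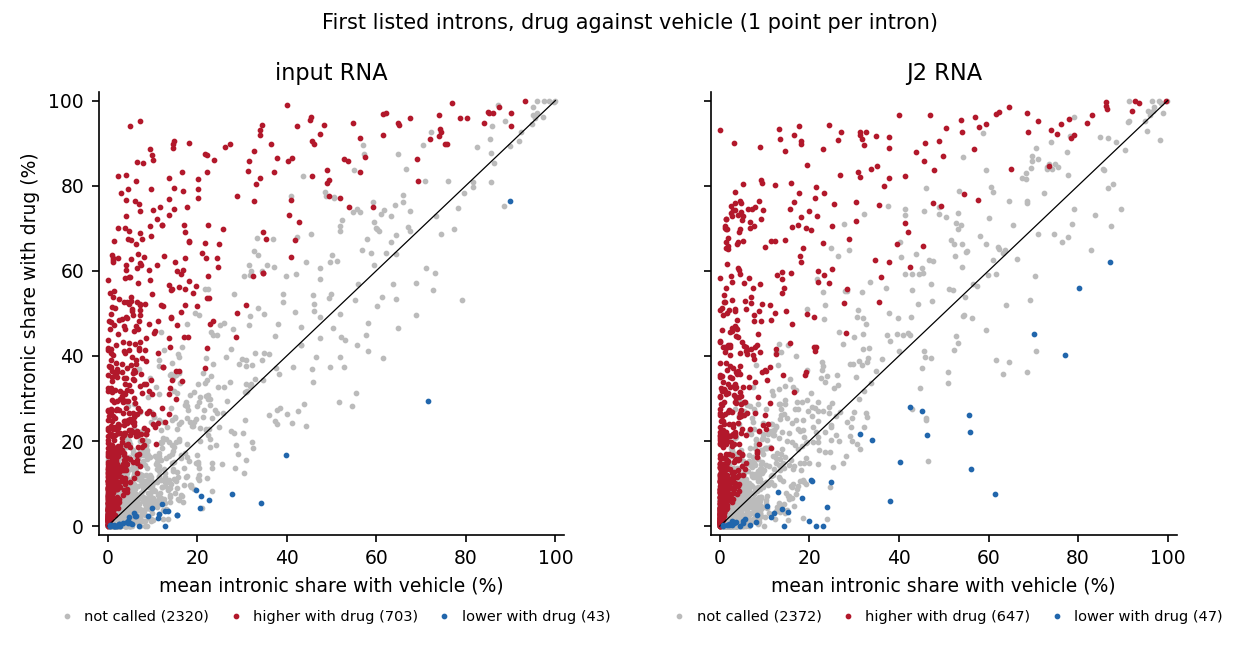
Mean intronic share with vehicle (x axis, %) and with drug (y axis, %) of each of the 3066 first listed introns, in the input (left) and in J2 RNA (right), with the line of equality. In the input 703 introns were called higher with drug (red) and 43 lower (blue), and in J2 RNA 647 and 47.

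The largest rises among first introns free of other exons took the intronic share from under 20% to over 65% of the reads. SBF1, which encodes a pseudophosphatase of the myotubularin family, had a first intron of 6324 bases (chr22:50468462-50474785, GRCh38, minus strand). Its share was 7.55% and 2.30% with vehicle and 94.1% and 93.8% with drug. Its log2 odds change was 8.12 ± 0.67 (SE, adjusted p = 1.4e-31). CAPN15, a protease of the calpain family, had 4 and 2 intronic reads of 40 and 46 with vehicle and 95.7% and 94.8% of reads inside with drug, in an intron of the 5′ UTR (chr16:528030-533945). MAP3K10, a kinase that feeds the JNK pathway, had 13% and 2.91% with vehicle and 85.1% and 85.7% with drug. In both genes the groups lay far apart, with log2 odds changes of 7.98 ± 1.10 (SE, adjusted p = 7.57e-12) and 6.18 ± 0.92 (SE, adjusted p = 3.63e-10). TUBG2, one of the gamma-tubulin genes, had 16.5% and 13.2% with vehicle and 93.4% and 87.7% with drug in a first intron of 281 bases. MPV17L2, needed for the mitochondrial ribosome, had 3.19% and 9.63% with vehicle and 81.2% and 80.8% with drug. TSEN54, a subunit of the endonuclease that splices tRNA, had 14.3% and 14.8% with vehicle and 91.4% and 86.3% with drug in an intron of only 129 bases. The drug libraries of these 3 short introns lay at or above 80%, and the 3 log2 odds changes were 5.81 ± 0.48 (SE, adjusted p = 2.7e-31), 6.0 ± 0.88 (SE, adjusted p = 1.71e-10) and 5.52 ± 0.89 (SE, adjusted p = 8.82e-09).

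Rises of this size were also seen in genes with more reads over the intron. CCND1 encodes cyclin D1, and its first intron (chr11:69641512-69643030, plus strand, 1519 bases) had 5.71% and 6.67% with vehicle and 76% and 77% with drug. The log2 odds change was 5.62 ± 0.39 (SE, adjusted p = 1.64e-44), from 595 to 1002 total reads per library. PSMD3, a subunit of the proteasome's regulatory particle, had 8.56% and 11% with vehicle and 80.1% and 78.5% with drug, a change of 5.14 ± 0.39 (SE, adjusted p = 1.14e-36). DVL1, a Dishevelled protein of Wnt signalling, had 2.73% and 5.11% with vehicle and 70.0% and 70.0% with drug. ATXN7L3, of the deubiquitinating module of SAGA, had 3.85% and 4.41% with vehicle and 69.2% and 76.7% with drug. Their log2 odds changes were 5.82 ± 0.45 (SE, adjusted p = 7.79e-36) and 5.95 ± 0.74 (SE, adjusted p = 3.54e-14). Every one of these 10 introns was intron 1 of its transcript, and the calls stood when any 1 library was left out.

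Falls were fewer and came from introns that held reads without drug. MTHFD2, a mitochondrial enzyme of folate metabolism, was one of them. Its first intron (chr2:74198743-74205704, plus strand, 6962 bases) had 11.5% and 11.1% with vehicle and 1.91% and 2.02% with drug, from over 1000 total reads in each of these libraries, and a log2 odds change of -2.66 ± 0.40 (SE, adjusted p = 3.91e-10). ACBD6, an acyl-CoA-binding protein, had 35.2% and 44.6% with vehicle and 18.2% and 15.3% with drug (log2 odds change -1.73 ± 0.41 SE, adjusted p = 0.000187). In both genes the 2 groups lay apart, and the calls stood without any 1 library. The other 4 named falls lost their call in fits that left a group with 1 library. In those fits the log2 odds change was still -1.81 for VPS72, -2.89 and -3.22 for STX3 and -1.33 to -1.57 for DHX34, while that of NPEPPS varied more. VPS72, a subunit of chromatin complexes that deposit H2A.Z, had 11.6% and 11.3% with vehicle and 1.99% and 3.54% with drug (log2 odds change -2.16 ± 0.60 SE, adjusted p = 0.00179), and p was 0.064 (edgeR, adjusted) without drug replicate 1. STX3, a syntaxin, had 5.61% and 5.13% with vehicle and 0.741% and 0.408% with drug (adjusted p = 0.00809), and the adjusted p was 0.0539 without vehicle replicate 1 and 0.0808 without drug replicate 2, and 0.11 with DESeq2. NPEPPS, an aminopeptidase, had 14.7% and 12.4% with vehicle and 0.588% and 6.41% with drug. Its log2 odds change of -2.16 ± 0.82 (SE, adjusted p = 0.0301) was -1.17 without drug replicate 1 (adjusted p = 0.477) and -4.55 without drug replicate 2 (0.00953). Without either vehicle replicate its adjusted p was 0.116 or 0.066, with limma 0.0609 and with DESeq2 0.176. DHX34, a helicase of nonsense-mediated decay, kept a high share throughout, 89.1% and 90.6% with vehicle and 75.1% and 77.5% with drug. Its adjusted p of 0.0346 rose to between 0.0763 and 0.171 when any 1 input library was left out, and was 0.0507 with DESeq2.

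At the other end, 420 first introns free of other exons were called in neither kind of RNA and had a mean share under 1% in all 4 groups. Those with most reads belong to abundant housekeeping genes. RPS12, of the small ribosomal subunit, had 0 and 0 intronic reads with vehicle and 0 and 5 with drug in the input, out of 15525 to 21227. RPS16 had no intronic read in any of the 4 input libraries, out of 15960 to 20289. TPI1, a glycolytic enzyme, had 1 and 2 with drug out of 6716 and 7243. TPM4, a tropomyosin, had 0% and 0.0832% with vehicle and 0.192% and 0.129% with drug, and ANXA5, an annexin, had 0% and 0.173% with vehicle and 0.178% and 0.365% with drug (adjusted p = 0.101). None of these 5 introns was called in either kind of RNA. Some first introns had a high share already with vehicle. In the input a mean share over 50% was seen in 135 with vehicle and in 323 with drug. These counts and that of the 420 are given for the members only, without a count over all introns. PAPD5, a non-canonical poly(A) polymerase, had 95.9% and 95.2% with vehicle and 94.7% and 96.9% with drug, and ULBP1, a ligand of the receptor NKG2D, had 86% and 85.5% with vehicle and 95% and 92.9% with drug. Neither was called in the input.

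The second comparison asked the same of RNA recovered with J2. First introns that rose numbered 647 of 3066 (21.1%), and 47 fell (1.53%), beside 30.8% and 0.833% of all 30262 introns tested with edgeR. Vehicle and drug libraries did not overlap in 636 of the rises and in all 47 falls, again counted for the members only. The median change was 0.563 points over the members and 1.10 over all introns. The rises had a median of 18.8 points, and 104 were over 50. With median-of-ratios scaling, which moved the median of all introns by -1.36, 221 were called higher and 395 lower, against 3714 higher (12.3%) and 1631 lower (5.39%) of all introns. limma called 172 falls (5.61%), edgeR with no read minimum 27 (0.881%), and of the members free of other exons 0.814% fell. A rise in both kinds of RNA was called for 71.0% of the input list, which is 77.1% of the J2 list. A fall in both was called for 13 (30.2% and 27.7% of the lists), and 2139 were called in neither. These overlaps are given for the members only, so they cannot be set against all introns tested. The number of falls was 31, 30 or 25 without J2 vehicle replicate 2, drug replicate 1 or drug replicate 2. SBF1 had 0% and 0% with vehicle and 91.4% and 94.6% with drug, at least 30.1-fold above a vehicle group set to 3 reads. NR2C2AP, which encodes a protein that binds a nuclear receptor, had 10.7% and 7.39% with vehicle and 88.2% and 89.9% with drug in a first intron of 141 bases, a log2 odds change of 6.34 ± 0.82 (SE, adjusted p = 2.63e-13). AP3D1, a subunit of the AP-3 adaptor, had 4.35% and 1.63% with vehicle and 79.8% and 68.8% with drug in one of 12524 bases (log2 odds change 6.51 ± 0.73 SE, adjusted p = 1.93e-17). MPV17L2, TUBG2 and DVL1 had drug shares of 81.5% and 79.1%, 90.7% and 91.1% and 76.2% and 75.7%. These shares lay within a few points of those in the input for all 3 genes or above them. Among the falls, ACBD6 had 41.4% and 39.2% with vehicle and 16.4% and 13.6% with drug (log2 odds change -1.93 ± 0.39 SE, adjusted p = 6.31e-06). ANKLE2, which acts on the nuclear envelope in mitosis, had 22.9% and 25% with vehicle and 3.70% and 5.45% with drug (log2 odds change -2.69 ± 0.83 SE, adjusted p = 0.00519). NPEPPS had 21.7% and 18% with vehicle and 0% and 2.50% with drug, with -3.94 ± 1.16 (SE, adjusted p = 0.00295). Without drug replicate 1 its adjusted p was 0.0523, and without drug replicate 2 its change was -6.88. DSG2, a desmosomal cadherin, had 5 and 10 intronic reads with vehicle and none with drug, at least 6.40-fold less, and its adjusted p was 0.0656 without drug replicate 2.

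Whether the drug effect differed between J2 RNA and input was tested as an interaction. It was called for 9 first introns, 8 with a larger effect in J2 RNA (0.261%) and 1 with a smaller one (0.0326%), beside 0.291% and 0.152% of all introns. At an unadjusted p under 0.05 there were 97 and 77. Of the 8, 6 belong to ribosomal protein genes. edgeR called all 9, DESeq2 called 7 first introns higher and 0 lower, and limma called 0 in either direction. Of the 9, DESeq2 did not call RPS4X (adjusted p = 0.675), TSPAN4 (0.133), ATRAID (0.0615) and EEF1A1 (0.0589), and with limma the adjusted p of the 9 ran from 0.0879 to 0.235. The number with a larger effect in J2 RNA was 5, 4 or 5 without input drug replicate 1, input drug replicate 2 or J2 drug replicate 2. RPS13 (chr11:17077478-17077618, minus strand, 141 bases) had 1.83% and 2.25% with vehicle and 15.6% and 13.4% with drug in the input and 1.39% and 1.53% with vehicle and 36.9% and 39.9% with drug in J2 RNA. RPS25 (chr11:119018054-119018281, minus strand, 228 bases) had 0.176% and 0.165% with vehicle and 2.54% and 2.04% with drug in the input and 0.115% and 0.0456% with vehicle and 8.82% and 9.97% with drug in J2 RNA. In both genes the drug libraries rose in each kind of RNA and lay highest in J2 RNA. The drug effects differed, on the log2 scale, by 2.37 ± 0.33 (SE, adjusted p = 2.41e-09) for RPS13 and 3.25 ± 0.59 (SE, adjusted p = 3.18e-05) for RPS25, and both calls stood without any 1 library. Their 3′ ends, shown above, are free of other exons. RPS4X was called higher in J2 RNA and not called in the input, though its J2 change was -0.46 or -0.48 and not called under median-of-ratios or TMM scaling. It had 1.30% and 1.08% with vehicle and 1.27% and 0.670% with drug in the input and 0.540% and 1.12% with vehicle and 2.01% and 2.84% with drug in J2 RNA. Its interaction of 1.87 ± 0.40 (SE, adjusted p = 0.00161) was lost without input vehicle replicate 1, input drug replicate 2, J2 vehicle replicate 1 or J2 drug replicate 2 (adjusted p 0.0581, 0.576, 0.354 and 0.112).

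In the other 6 introns another exon of the same gene lies inside the intron, and its reads cannot be told from unspliced ones. RPL5 had 0.573% and 0.651% with vehicle and 0.704% and 0.658% with drug in the input and 0.122% and 0.0906% with vehicle and 1.34% and 1.82% with drug in J2 RNA (log2 difference 3.74 ± 0.58 SE, adjusted p = 1.89e-07). RPL19 had 2.19% and 1.81% with vehicle and 2.43% and 2.20% with drug in the input and 1.31% and 1.21% with vehicle and 6.01% and 6.19% with drug in J2 RNA (log2 difference 2.14 ± 0.33 SE, adjusted p = 2.66e-07). With drug RPL7A had 5.98% and 6.69% in J2 RNA, against 3.29% and 3.02% without J2. Its interaction of 1.78 ± 0.33 (SE, adjusted p = 4.45e-05) had an adjusted p of 0.055, 0.119 or 0.061 without input drug replicate 1, input drug replicate 2 or J2 vehicle replicate 2. In these 3 genes the J2 libraries with drug were the highest of the 4 groups. TSPAN4, a tetraspanin, had 7.28% and 13.5% with drug in J2 RNA and 2.37% and 3.15% in the input (log2 difference 4.13 ± 1.08 SE, adjusted p = 0.0336). ATRAID had 7.21% and 13.5% with drug in J2 RNA and 0% and 0.304% in the input (log2 difference 6.76 ± 1.59 SE, adjusted p = 0.00836). Both rested on few intronic reads. The TSPAN4 call was lost without any 1 library other than J2 drug replicate 1 (adjusted p 0.081 to 0.356). The ATRAID call was lost without input vehicle replicate 2, either input drug library or J2 drug replicate 2 (0.0811 to 0.157). EEF1A1, the translation elongation factor, went the other way, with 5.22% and 4.08% with vehicle and 21.9% and 27.9% with drug in the input and 12.2% and 13.7% with vehicle and 12.1% and 3.91% with drug in J2 RNA (log2 difference -3.77 ± 0.45 SE, adjusted p = 7.24e-13). Its 2 J2 libraries with drug held 2254 and 6009 total reads. It was the only first intron called higher in the input and lower in J2 RNA, and the J2 call was lost without J2 drug replicate 2 (log2 change -0.12) or J2 vehicle replicate 2 (adjusted p = 0.0717), and was -1.87 without J2 drug replicate 1. limma and DESeq2 did not call the J2 change either (adjusted p 0.205 and 0.391). Ribosomal protein genes and EEF1A1 have many near-identical pseudogene copies, so their counts depend on how the authors placed reads that fit several places.

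**Figure D3:**
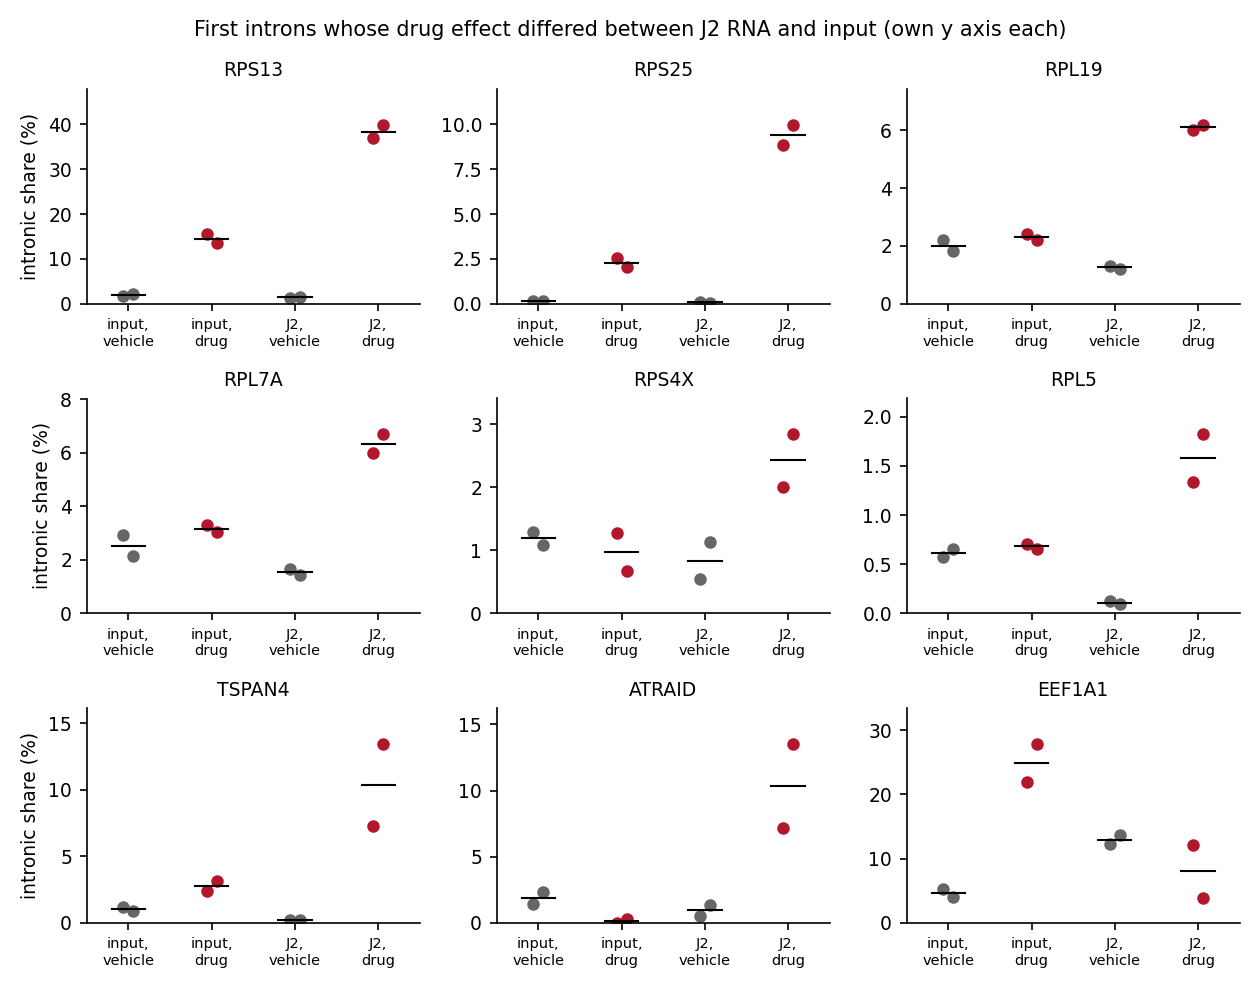
Intronic share (y axis, %, own scale per gene) of the 9 first introns whose drug effect differed between J2 RNA and input, in the 4 groups (x axis); points are libraries and bars means. RPS13 reached 36.9% and 39.9% with drug in J2 RNA beside 15.6% and 13.4% in the input, and EEF1A1 alone was highest in the input with drug.

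Compared directly, J2 RNA and input differed in few first introns. With vehicle, 10 were higher in J2 RNA and 22 lower (0.326% and 0.718% of members, 0.321% and 0.978% of all introns tested). With drug, 36 were higher and 65 lower (1.17% and 2.12%, beside 0.945% and 1.47%). DESeq2 called 9 lower with vehicle, and with drug limma called 10 higher and 30 lower and DESeq2 16 and 18. With vehicle, the number higher was 3 to 5 without any 1 of the input libraries or J2 vehicle libraries, and the number lower was 8, 9 or 10 without input vehicle replicate 2 or J2 vehicle replicate 1 or 2. With drug, the number higher was 11, 9 or 20 without input drug replicate 1, input drug replicate 2 or J2 drug replicate 2, and the number lower was 18 to 26 without any 1 drug library. CUEDC2, whose first intron lies in the 5′ UTR, had 29.1% and 24.8% with drug in the input, against 7.89% and 8.67% with J2, a log2 difference of -2.02 ± 0.37 (SE, adjusted p = 1.27e-05) that stood without any 1 library but was not called with limma (adjusted p = 0.0516). PPP1CA, a catalytic subunit of protein phosphatase 1, had an input share of 37.3% and 32.9% with drug and a J2 share of 69.5% and 61.2% (log2 difference 1.81 ± 0.44 SE, adjusted p = 0.00438), and the call was lost without J2 drug replicate 1 or either input drug library (adjusted p 0.0676 to 0.215) and with limma (0.295) or DESeq2 (0.889). PRKRIP1 was higher in J2 RNA with either treatment. With vehicle its input share was 26.9% and 26.4% and its J2 share 50.8% and 51.6%. With drug these were 30.9% and 27.9%, and 57.5% and 53.7%. The call with vehicle (adjusted p = 0.042) was lost without any 1 vehicle library or either input drug library (adjusted p 0.0753 to 0.244), with limma (0.063) and with the replicate block (0.073), and that with drug (adjusted p = 0.0169) without any 1 of the 4 drug libraries (0.0997 to 0.361) and with limma (0.0553). C10orf54, which encodes the checkpoint protein VISTA, had an input share of 4.77% and 6.36% with vehicle and a J2 share of 0.969% and 0.451% (adjusted p = 0.00523), and this call was lost without input vehicle replicate 2 or either J2 vehicle library (0.0503 to 0.236). Its intron rose with drug in both kinds of RNA, to 25% and 28.2% without J2 and to 11.6% and 15.8% with it.

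A first intron and the other introns of its gene were also compared within the gene. They need not come from the same transcripts, since another exon of the same gene lay in 1643 of the first introns (53.6%). The test took the drug effect on the odds of the first intron minus that on the summed other listed introns, in 3531 genes, of which 2938 are genes of members. In the input the log odds change of the first intron was below that of the others in 518 genes (17.6%) and above it in 172 (5.85%), beside 18.6% and 5.47% of all 3531. In J2 RNA it was below in 533 (18.1%) and above in 165 (5.62%), beside 19.5% and 5.18%. Over the members free of other exons the imbalance was smaller, with 9.96% below and 6.13% above in the input. J2 RNA had 9.53% below and 5.79% above. limma called 28.4% below in the input and 33.5% in J2 RNA. Since most genes in this fit are genes of members, these background values are not independent of them. The calls were shared by both kinds of RNA in 315 genes with the first intron below the others and in 85 with it above. In points, the median change was 0.813 for the first and 5.66 for the summed others in the input. In J2 RNA these were 0.548 and 4.05. The first intron changed by fewer points than the summed others in 1951 of 2938 genes (66.4%) in the input and in 1914 (65.1%) in J2 RNA. These values set 1 intron against a sum, in which a few introns can weigh heavily. Taken intron by intron, the median share of first introns went from 1.33% to 3.16% in the input. In J2 RNA it went from 0.811% to 2.38%. The median of internal introns of the same genes went from 0% to 1.97% and from 0% to 1.30%. Among the 518 genes, 410 had a first intron that was itself not called in the input, in 69 it rose but less than the others, and in the remainder it fell. Of the 172, 157 had a first intron that rose. The count with the first intron above the others was 110 or 108 without input vehicle replicate 1 or 2, and in J2 RNA 101 or 98 without J2 vehicle replicate 1 or 2.

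RANGAP1, the GTPase-activating protein of Ran, had a first intron that stayed low while the others rose. Its first listed intron (intron 2 of the transcript, chr22:41274728-41280932, minus strand) had 9 and 9 intronic reads with vehicle and none with drug, from 400 to 466 total reads, while its other introns went from a mean share of 0.385% to 6.38% (adjusted p = 4.9e-09). MAPRE1, the microtubule plus-end protein EB1, had 0.766% and 1.44% with vehicle and 0% and 0.287% with drug in its first intron, while the others went from 0.886% to 47.1% (adjusted p = 1.45e-05). Both calls stood without any 1 library. The others of FBL, the methyltransferase fibrillarin, went from 0.161% to 3.82% while its first intron had 0.868% and 0.206% with vehicle and 0% and 0% with drug, and this call was lost without vehicle replicate 1 (adjusted p = 0.138). TARDBP, which encodes the RNA-binding protein TDP-43, had 2 and 0 intronic reads with vehicle and none with drug, and SNUPN, the import receptor of spliceosomal particles, had 2 and 0 and none. Their other introns went from 33.3% to 92% and from 16.6% to 83.1%. Without vehicle replicate 1, which holds all of these first-intron reads, both had an adjusted p of 1, and without drug replicate 2 that of SNUPN was 0.0588. The reverse was seen in COPE, a coatomer subunit, whose first intron (chr19:18913047-18919222, minus strand, 6176 bases) had no intronic read with vehicle and 88 and 52 with drug, at least 83-fold above a vehicle group set to 3 reads. Its other introns went from 0.222% to 0.909% (adjusted p = 4.14e-06). DPY30, a core subunit of histone methyltransferase complexes, had none with vehicle and 67 and 66 with drug in an intron of 100 bases, at least 66.6-fold more, with the others at 1.01% to 1.93% (adjusted p = 5.28e-06). KNSTRN, a spindle protein, had 0% and 1.80% with vehicle and 65.6% and 61.7% with drug, with the others at 3.83% to 7.73%. Its log2 difference was 6.49 ± 0.74 (SE, adjusted p = 3.11e-09) and 11.5 without vehicle replicate 2, the only vehicle library of the input with intronic reads, so that the latter is no bound. EIF2B4, of the exchange factor for eIF2, had 0% and 0% with vehicle and 28.9% and 41.9% with drug, at least 55.7-fold more, and this call was lost without vehicle replicate 1 (adjusted p = 0.197).

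Short first introns rose most often. In the input 39.1% of 524 introns under 500 bases rose, 23.6% of 836 from there to under 2000 bases, 19.3% of 781 from there to under 5000 bases and 16.2% of 925 from there to under 20000 bases. In J2 RNA the shares were 38.9%, 23.0%, 16.5% and 13.2%. Internal introns varied less with length, from 31.2% to 25% in the input and from 34.3% to 23.1% in J2 RNA over the same bins. Last introns went from 37.1% to 26.8% and from 45.4% to 21.5%. The median total of first introns over the 8 libraries was 1650 reads in the shortest bin and 1180, 1070 and 1080 in the others, and the median of intronic reads was 42.5, 30.5, 27 and 35. The median share in the input went from 0.675% to 3.63% with drug in the shortest bin and from 2.30% to 3.75% in the longest, so long first introns started higher. These are descriptions without a test.

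**Figure D4:**
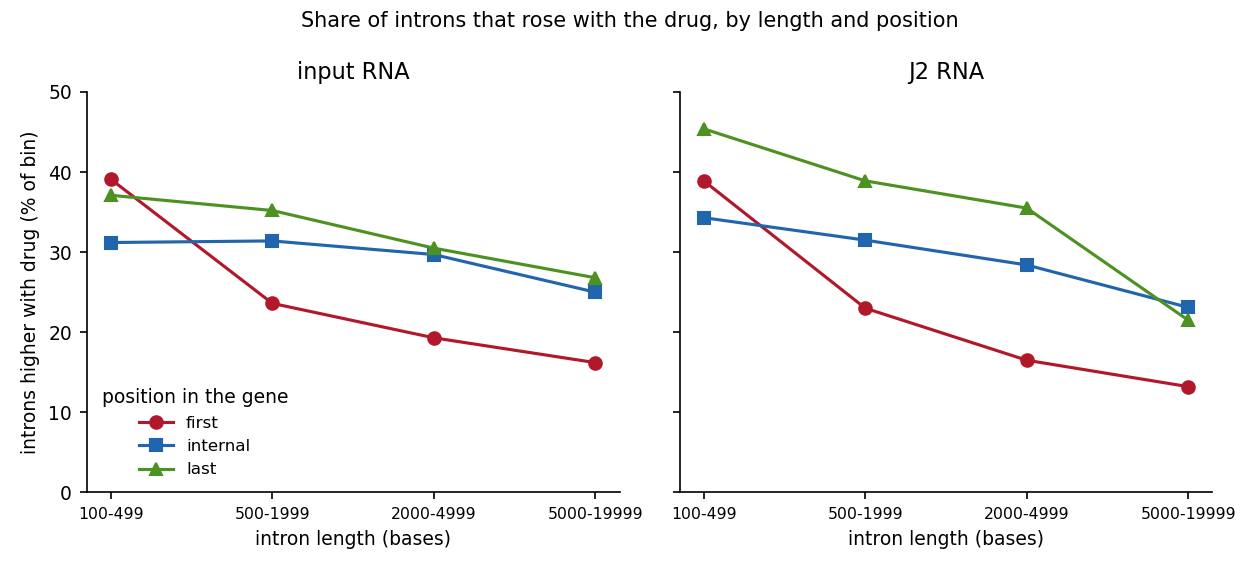
Introns called higher with drug (y axis, % of the introns in a bin) by intron length in bases (x axis, 4 bins) for first, internal and last listed introns, in the input (left) and J2 RNA (right). First introns went from 39.1% in the shortest bin to 16.2% in the longest in the input, and internal ones from 31.2% to 25%.

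The annotation of the members was mixed. Of the 3066, 2975 matched an intron of a GENCODE 29 transcript, and 2194 (71.6%) were its intron 1, 486 its intron 2 and 295 a later one. In the input 23.0% of the introns 1, 24.5% of the introns 2 and 21.0% of the later ones rose. Of the 573 in a 5′ UTR 126 rose, and of the 2401 in the coding part 559 (23.3%). These classes lay within a few points of the 22.9% of all members. Of the introns annotated as kept in a retained-intron transcript, 68 of 142 rose (47.9%), against 635 of the other 2924 (21.7%), and 71 and 576 (19.7%) rose in J2 RNA. Their median length was 280 bases, against 2770 for the others, so that annotation and length go together here. Of the 1229 introns free of other exons 21.1% rose, and of the 1837 with another exon 24.2%. An exon on the opposite strand lay in 368. The upstream exon ended in AG, the usual letters before the 5′ splice site, for 46.7% of the introns that rose and for 52.6% of those not called. Introns that rose had a median length of 1420 bases, those not called 2830 and those that fell 4830. The upstream exons were of much the same median length (191, 197 and 181 bases) and GC content (67.3%, 66.0% and 65.7%). Introns that rose had a median total of 1810 reads and those not called 1010, and the part of depth in the calls was not tested.

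The members were also counted by gene list. Ribosomal protein genes, 38 members, build both subunits of the ribosome. Their first introns rose in 14 (36.8%) and fell in 3 in the input, beside rises in 22.9% of all members and 29.6% of all introns. They rose in 22 (57.9%) and fell in 0 in J2 RNA with edgeR, beside rises in 21.1% and 30.8%. At an unadjusted p under 0.05, 1 fell in J2 RNA, and limma and DESeq2 called 0 falls there. The median share went from 0.783% to 1.30% in the input and from 0.716% to 1.57% in J2 RNA. RPL24 stood out in a first intron of 114 bases, with 6.32% and 6.15% with vehicle and 46.5% and 47.7% with drug in the input (log2 odds change 3.74 ± 0.19 SE, adjusted p = 5.71e-80). RPL10A had 4.54% and 4.55% with vehicle and 30.0% and 28.7% with drug (log2 odds change 3.12 ± 0.17 SE, adjusted p = 3.66e-74). RPL10A has another exon in the intron. With median-of-ratios scaling 8 members were higher and 17 lower in the input, and J2 RNA had 9 and 14.

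Genes of the splicing machinery were counted in 3 lists. Over all introns tested, 29.6% rose in the input and 30.8% in J2 RNA, and 0.681% and 0.833% fell. Of 15 members of the list of SF3b and the U2 particle, which also takes in U2AF2 of U2AF, 2 rose and 1 fell in each kind of RNA. SF3B4, an SF3b subunit, had 0% and 0% with vehicle and 2.58% and 1.67% with drug in the input, at least 5.29-fold more (adjusted p = 0.00206). In J2 RNA its call was lost without vehicle replicate 1 or drug replicate 2 (adjusted p 0.222 and 0.73). U2AF2, the large subunit of U2AF, fell, with 4.37% and 4.14% with vehicle and 1.08% and 0.837% with drug in the input (log2 odds change -2.19 ± 0.56 SE, adjusted p = 0.000586) and 6.25% and 4.96% with vehicle and 1.54% and 1.96% with drug in J2 RNA. SNRPA1, a protein of the U2 particle, had 0% and 0.267% with vehicle and 1.18% and 3.35% with drug in the input (adjusted p = 0.0299), a call lost without either vehicle library or drug replicate 2 (adjusted p 0.0588 to 0.353) and with DESeq2 (0.0978). All 3 have another exon of the gene in the intron. Of 31 members among the other spliceosome genes, 10 rose (32.3%, near the share of all introns) and 0 fell in each kind of RNA with edgeR. At an unadjusted p under 0.05 there was 1 fall in the input and 0 in J2 RNA, and limma called 2 and 1 and DESeq2 0 and 0. SYF2 had 2.73% and 4.67% with vehicle and 52.3% and 52.8% with drug (log2 odds change 4.82 ± 0.44 SE, adjusted p = 6.96e-26), RBMX2 5.22% and 10.9% with vehicle and 59.7% and 67% with drug (log2 odds change 4.29 ± 0.52 SE, adjusted p = 3.32e-15) and SNRPC, of the U1 particle, 3% and 10.6% with vehicle and 55.9% and 58.3% with drug (log2 odds change 4.14 ± 0.63 SE, adjusted p = 8.77e-10). With median-of-ratios scaling 3 were higher and 2 lower in the input. The SR and hnRNP regulators, which bind exons and introns to steer splice site choice, had 27 members, of which 0 rose and 1 fell in each kind of RNA with edgeR. At an unadjusted p under 0.05, 0 rose in the input and 1 in J2 RNA. limma called 1 and 2 rises, and DESeq2 called 0 and 0. Their median change was -0.0171 points in the input, beside 0.813 over all members. The fall was SRSF11, with 22% and 23.5% with vehicle and 7.25% and 4.83% with drug (adjusted p = 0.0462), and it was lost without any 1 input library (adjusted p 0.116 to 0.255), with DESeq2 (0.0998) and with the replicate block (0.0565). SRSF3, an SR protein, had 0 and 2 intronic reads with vehicle and none with drug.

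The list of nonsense-mediated decay and the RNA exosome had 14 members. In the input 5 rose (35.7%) and 0 fell, and all 5 encode exosome subunits. How many of the 14 do so is not given here, so a share of exosome genes cannot be read from this. Over all introns tested, 29.6% rose in the input and 30.8% in J2 RNA. The tools all called 0 falls in the input, as did an unadjusted p under 0.05. EXOSC2 had no intronic read with vehicle and 9 and 15 with drug, at least 7.60-fold more (adjusted p = 0.00249). EXOSC5 had none and 12 and 4, at least 7.57-fold more, and was lost without drug replicate 1 (adjusted p = 0.074). EXOSC7 had 1.82% and 0.825% with vehicle and 10.1% and 7.74% with drug (log2 difference 2.87 ± 0.75 SE, adjusted p = 0.00071). In J2 RNA edgeR called 0 of the 14 in either direction, with 2 rises and 1 fall at an unadjusted p under 0.05, limma 3 and 1, and DESeq2 0 and 0. The interaction was called for 0 members of this list, so a difference between the kinds of RNA was not shown. With median-of-ratios scaling 0 were higher and 1 lower in the input. Of 12 NF-kB genes 5 rose and 0 fell in the input, and J2 RNA had 3 rises and 0 falls, with 0 falls also in limma and DESeq2 and at an unadjusted p under 0.05. With median-of-ratios scaling 0 were higher and 2 lower in the input. TAB1, which activates the kinase TAK1, had 7.96% and 7.04% with vehicle and 62.7% and 60.0% with drug (log2 difference 4.26 ± 0.95 SE, adjusted p = 5.98e-05). TNFRSF1A, the TNF receptor, had 3.12% and 1.47% with vehicle and 6.44% and 6.36% with drug (log2 difference 1.56 ± 0.36 SE, adjusted p = 0.000123). Under median-of-ratios or TMM scaling the change of TNFRSF1A was -0.17 or -0.088 and not called. RELA, the p65 subunit, had 1.34% and 6.15% with vehicle and 12.9% and 20.6% with drug (log2 difference 2.32 ± 0.58 SE, adjusted p = 0.000374). Without vehicle replicate 1 RELA was not called (adjusted p = 0.057), and without vehicle replicate 2 its change was 3.81.

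Cell division and proteasome genes were counted in the same way. For these and the lists that follow, the shares that rose in the input were 22.9% of all members and 29.6% of all introns. In J2 RNA they were 21.1% and 30.8%. Of 27 mitotic genes 5 rose (18.5%) and 1 fell in the input, and 7 rose in J2 RNA (25.9%). CDC25B, a phosphatase that activates cyclin-dependent kinases, had no intronic read with vehicle and 11 and 40 with drug, at least 57.3-fold more, in an intron of 132 bases. KIF4A, a mitotic kinesin, had 23.9% and 20.7% with vehicle and 87.6% and 86.8% with drug (log2 odds change 4.55 ± 0.73 SE, adjusted p = 7.99e-09), and BUB3, of the spindle checkpoint, 2.11% and 4.02% with vehicle and 12.4% and 10.5% with drug (log2 odds change 2.01 ± 0.46 SE, adjusted p = 9.57e-05). Of 33 proteasome genes 5 rose in each kind of RNA (15.2%), a lower share than of all members or all introns. ADRM1, a ubiquitin receptor of the proteasome, had 0.532% and 0% with vehicle and 25.8% and 26.1% with drug beside an opposite-strand exon. Its log2 odds change of 7.06 ± 0.56 (SE, adjusted p = 8.16e-34) became 11.3 without vehicle replicate 1, which held all its vehicle reads of the input, so that this value is no bound. Of 31 DNA replication and repair genes 6 rose in the input and 5 in J2 RNA. DDB2, which recognises ultraviolet damage, had 5% and 3.17% with vehicle and 75% and 78.4% with drug (log2 odds change 6.20 ± 1.27 SE, adjusted p = 1.01e-05), and ERCC3, a helicase of TFIIH, 9.09% and 1.27% with vehicle and 70.3% and 64.1% with drug (log2 odds change 5.17 ± 0.92 SE, adjusted p = 2.31e-07). Of 24 genes of amino acid and unfolded protein stress 5 rose and 1 fell in the input, while J2 RNA had 3 rises and 2 falls. The fall in the input was MTHFD2, described above. PSPH, of serine synthesis, had 73.8% and 76.7% with vehicle and 90.7% and 88.7% with drug (log2 odds change 1.51 ± 0.47 SE, adjusted p = 0.00621), and was lost without drug replicate 1 (adjusted p = 0.0891). Of 13 aminoacyl-tRNA synthetase genes 1 rose in the input and 3 in J2 RNA. The one in the input was SARS, the seryl-tRNA synthetase, with 35.1% and 34.4% with vehicle and 59.4% and 59.6% with drug and another exon of the gene in its 9849-base first intron (log2 odds change 1.47 ± 0.27 SE, adjusted p = 8.54e-07). With median-of-ratios and TMM scaling neither was called, SARS having log2 changes of -0.27 and -0.19 (edgeR adjusted p 0.634 and 0.785) and PSPH of -0.22 and -0.14 (0.921 and 1). Of 10 interferon response genes 1 fell in the input, TRIM25, with 6.01% and 6.39% with vehicle and 3.23% and 1.54% with drug (adjusted p = 0.0453), lost without any 1 input library or J2 drug replicate 2 (adjusted p 0.0503 to 0.422), with limma (0.0537), with DESeq2 (0.173) and with the replicate block (0.0559). Of 10 apoptosis and p53 genes 3 rose in the input and 1 in J2 RNA, and 4 members of the immediate-early list were too few to describe. Under median-of-ratios scaling the numbers higher and lower in the input were 2 and 1 for mitosis, 3 and 5 for the proteasome, 2 and 1 for DNA replication and repair, 0 and 6 for amino acid and unfolded protein stress, 0 and 2 for SF3b and U2, 0 and 7 for SR and hnRNP, 0 and 1 for the synthetases, 0 and 1 for interferon response and 1 and 0 for apoptosis and p53.

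**Figure D5:**
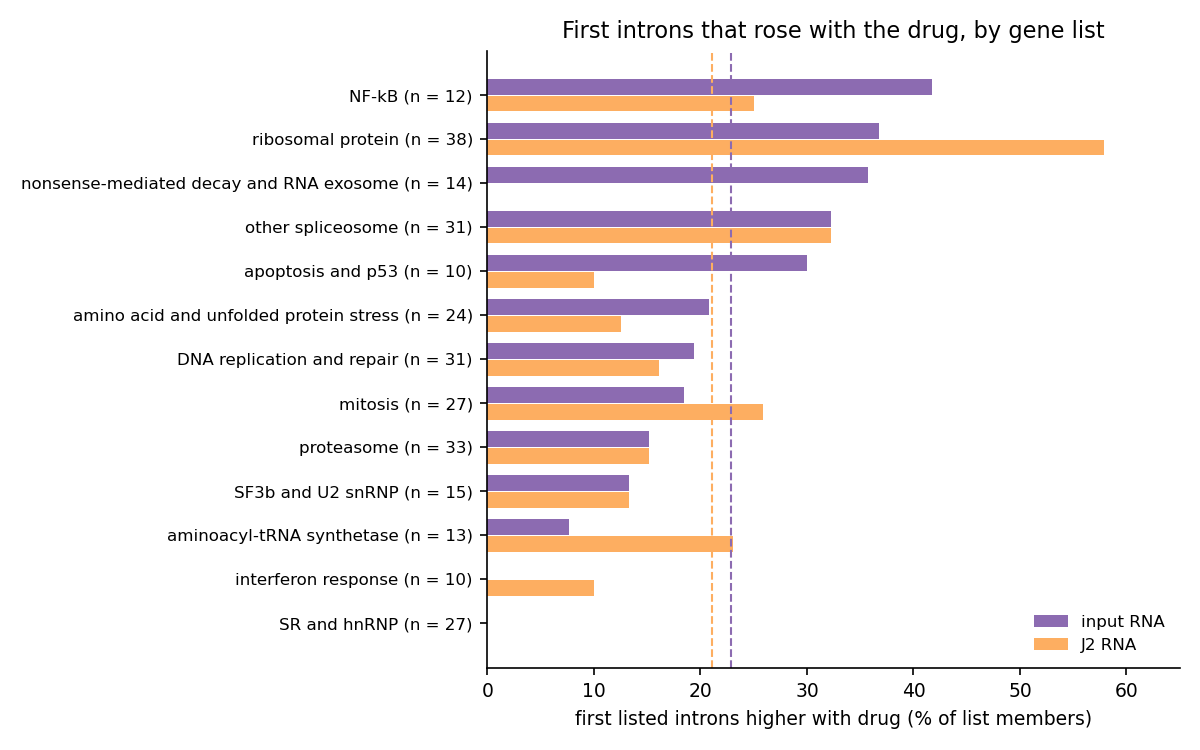
First listed introns called higher with drug (x axis, % of list members) for 13 gene lists (y axis, with the number of members) in the input and in J2 RNA; dashed lines mark the 22.9% and 21.1% of all members. Ribosomal protein genes reached 57.9% in J2 RNA, and the SR and hnRNP list had no bar.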

How the data were processed

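Intronic and spliced reads of polyadenylated RNA from SUM159 cells were analysed in 8 libraries. The authors deposited, per listed intron, whole-number read counts inside the intron and in total; that the total is inside plus spliced was read from the values. The deposited tables also hold RPKM, used here only to read library depth. Per the submitters' processing notes, HISAT2 2.0.4 was used; the counter and its strand setting are not given in the sources used here. Coordinates are GRCh38 and were matched to GENCODE 29.

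Introns with a total of at least 20 reads in all 8 libraries (30262) were fitted with edgeR 4.0.16 (R 4.3.3) on both counts, with 1 coefficient per library and log odds per group, and adjusted by Benjamini-Hochberg at 0.05. The interaction and J2 contrasts came from the same fit, and first introns were set against the summed other introns of their gene in a second one. limma 3.58.1 (pseudocount 1), DESeq2 1.42.0, other scalings, other read minimums, a replicate block and left-out libraries were alternatives. The scripts were tested on simulated data. Introns with no read in a group are given as bounds against 3 reads. Named introns are those free of other exons with the largest changes of share among called introns whose groups do not overlap, the deepest of those little changed, those highest with vehicle, and up to 3 per gene list by p; the text describes most of these, and the others are not reported here. The members and lists were chosen with earlier results of these data known.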

Additional observations from a re-analysis of the deposited data

Results flagged for a closer look

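The drug effect differed between J2 RNA and input in 9 first introns by edgeR's test of the difference (adjusted p under 0.05). The log2 odds difference, J2 RNA minus input, was 2.37 for RPS13, 3.25 for RPS25, 1.87 for RPS4X, 3.74 for RPL5, 2.14 for RPL19 and 1.78 for RPL7A, all ribosomal protein genes. It was 4.13 for TSPAN4 and 6.76 for ATRAID, which rest on few intronic reads, and -3.77 for EEF1A1. Another exon of the gene lies inside 6 of the 9 introns, and its part in the result was not tested.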

How the results depend on the processing

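Values are percentages of the members unless in points. The cause was not tested for any change below. Median-of-ratios and TMM scaling treat intronic and spliced counts apart and take out a shift common to most intronic counts. Rises, falls and signs under them, here and in the gene lists, are relative to that shift. With median-of-ratios scaling the values were rises in the input 7.63%, falls in the input 10.8%, rises in J2 RNA 7.21%, falls in J2 RNA 12.9%, a smaller drug effect in J2 RNA 0.0652%. With median-of-ratios scaling the values were a lower share in J2 RNA with vehicle 0.391%. With TMM scaling the values were rises in the input 8.19%, falls in the input 10.3%, rises in J2 RNA 7.21%, falls in J2 RNA 13.0%, a smaller drug effect in J2 RNA 0.0652%. With TMM scaling the values were a higher share in J2 RNA with vehicle 0.620%, a lower share in J2 RNA with vehicle 0.326%. With limma the values were falls in the input 4.24%, falls in J2 RNA 5.61%, a larger drug effect in J2 RNA 0%, a smaller drug effect in J2 RNA 0%, a higher share in J2 RNA with drug 0.326%. With limma the values were a lower share in J2 RNA with drug 0.979%, first below others in the input 28.4%, first below others in J2 RNA 33.5%. With DESeq2 the values were falls in the input 0.848%, a smaller drug effect in J2 RNA 0%, a lower share in J2 RNA with vehicle 0.293%, a higher share in J2 RNA with drug 0.522%, a lower share in J2 RNA with drug 0.587%. With no read minimum for the introns fitted the values were falls in the input 0.783%, falls in J2 RNA 0.881%, a higher share in J2 RNA with vehicle 0.0979%, a lower share in J2 RNA with vehicle 0.326%, a higher share in J2 RNA with drug 0.587%. With no read minimum for the introns fitted the values were a lower share in J2 RNA with drug 0.881%. Over members free of other exons the values were falls in the input 0.895%, falls in J2 RNA 0.814%, a smaller drug effect in J2 RNA 0%, a lower share in J2 RNA with vehicle 0.244%, a lower share in J2 RNA with drug 1.30%. Over members free of other exons the values were first below others in the input 9.96%, first below others in J2 RNA 9.53%. Over members free of other exons the summed rise in the input was 4.55 points and the summed rise in J2 RNA was 5.17 points. At a total of at least 50 reads the values were a larger drug effect in J2 RNA 0.436%, a lower share in J2 RNA with vehicle 1.36%, a higher share in J2 RNA with drug 2.04%, a lower share in J2 RNA with drug 3.44%. At a total of at least 10 reads the values were a smaller drug effect in J2 RNA 0.0529%. Over members that are intron 1 of the transcript the values were a smaller drug effect in J2 RNA 0%. Over members that are intron 1 of the transcript the summed rise in the input was 5.60 points and the summed rise in J2 RNA was 8.30 points. With the median share in place of the sum the summed rise in the input was 1.83 points and the summed rise in J2 RNA was 1.57 points.

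Leaving out 1 library at a time gave these ranges: rises in the input 17.4 to 24, falls in the input 0.620 to 1.47, rises in J2 RNA 16.9 to 21.6, falls in J2 RNA 0.815 to 1.63, a larger drug effect in J2 RNA 0.131 to 0.359, a smaller drug effect in J2 RNA 0.0326 to 0.0979. For J2 RNA against input they were a higher share in J2 RNA with vehicle 0.0979 to 0.391, a lower share in J2 RNA with vehicle 0.261 to 0.685, a higher share in J2 RNA with drug 0.293 to 1.27, a lower share in J2 RNA with drug 0.587 to 2.38. Within genes they were first above others in the input 3.68 to 6.26, first below others in the input 12.3 to 18.8, first above others in J2 RNA 3.34 to 5.68, first below others in J2 RNA 13.1 to 18.2, and for the sums the summed rise in the input 4.88 to 5.08 points, the summed rise in J2 RNA 7.25 to 7.37 points.

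Scaling turned the sign of some log2 odds changes, here with median-of-ratios and then TMM: HERPUD1 in the input -0.25 and -0.17, PRKRIP1 in the input -1.54 and -1.46, PSPH in the input -0.22 and -0.14, RPL19 in the input -1.52 and -1.44, RPL23 in the input -1.40 (median-of-ratios only), RPL5 in the input -1.58 and -1.50. The others were RPL7A in the input -1.40 and -1.32, RPS4X in J2 RNA -0.46 and -0.48, SARS in the input -0.27 and -0.19, SLFN5 in the input -0.44 and -0.36, TNFRSF1A in the input -0.17 and -0.088, VPS72 in J2 RNA -1.39 and -1.40. PRKRIP1, RPL19, RPL23, RPL5, RPL7A and VPS72 were called lower there, and the others were not called. With both scalings the calls of BUB3, C10orf54, CUEDC2, EXOSC2, EXOSC5, EXOSC7, RELA, SF3B4 and SNRPA1 in the input, of ATRAID, RPL19 and RPL7A in J2 RNA and the interaction of TSPAN4 were lost, with median-of-ratios alone that of TAB1 and with TMM alone the interaction of RPS4X. With no read minimum for the introns fitted, DHX34, NPEPPS, SNRPA1, SRSF11 and TRIM25 in the input, PRKRIP1 in J2 RNA against input and the interaction of TSPAN4 were not called. Of all introns the rule names, 20 results lost their call with limma, 15 with DESeq2 and 7 with the block.

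No pairing by replicate number was seen: deviations of same-numbered libraries correlated at -0.0217 to 0.00276 over 7477 introns. Counting noise at single introns can hold such correlations near these values, so the check cannot exclude a pairing. With the replicate block, rises were 22.4% in the input and 20.6% in J2 RNA, falls 1.17% and 1.37%, and none of the counts of calls moved by over 1.5 times. There were 2 libraries per group, and 762 members had no intronic read in the input with vehicle.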
